A study of Drosophila melanogaster with 31 samples.

Results

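The stronger accessible regions of gastrulating *Drosophila* embryos had nearly the same height with and without zygotic Grainy head (Grh). The embryos compared had received Grh from their mothers. Of 16012 accessible regions compared, 97.3% differed by less than 1.5-fold. Regions with the Grh consensus were lower without zygotic Grh more often than other regions. The difference was clearest on chromosome 3, where 10 of 74 were at least 1.5-fold lower (13.5%, beside 0.549% without the consensus). These shares were added after the data were seen. The median log2 ratio, mutant over sibling, was -0.15 with the consensus and -0.07 without it. Among the compared regions, those that differed by 2-fold lay mainly on chromosome 2, which carries the mutant allele.

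Accessibility was compared by ATAC-seq, which maps open chromatin by the insertion of a transposase, between embryos that cannot make zygotic Grh and siblings that can. The comparison used 6 of the 31 samples of the study. These were 3 single embryos homozygous for the *grh* null allele (grhB37/B37) and 3 single embryos with 1 copy of it (grhB37/+), all at embryonic stage 6. Both groups came from mothers that carried a functional *grh* gene, so Grh protein and mRNA laid down in the egg were not removed from either. The allele was kept over a CyO balancer chromosome that carries a red fluorescent reporter, and stage 6 embryos were genotyped by PCR and sequencing from their own libraries. The *grh* gene lies on chromosome 2. The homozygous embryos carried 2 copies of the chromosome with the allele and their siblings carried 1, so the loss of Grh and the rest of that chromosome cannot be told apart within these lists. Each genotype is represented by 1 deposited list of accessible regions (peaks), in which the authors analysed the replicates together. The members are all regions of both lists, 81187 in grhB37/B37 and 70259 in grhB37/+.

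Grh is a transcription factor of epithelial cells that binds an 8-base consensus, and in later tissues it acts as a pioneer factor that opens chromatin at the sites it occupies. It drives genes of the epidermal barrier, of cuticle and wound repair and of cell junctions. The mother supplies the first Grh, and the embryo's own gene is transcribed later.

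The sites of the Grh consensus on which the comparison turns are shown first. As letters on either strand, no farther than 50 bp from a region's strongest summit, the consensus was taken to be AACCGGTT and AACTGGTT (AACCAGTT on the other strand). It lay in 0.617% of all regions of the grhB37/B37 list and in 0.794% of those of the grhB37/+ list. The lines give 8 sites from regions that were at least 1.5-fold lower in grhB37/B37 and could be followed in single embryos of another experiment, then 3 sites from regions among the strongest of the control list. Each is the 30-base stretch read 5′ to 3′ on the strand that holds the consensus in this form, from the RefSeq Release 6 genome (dm6 coordinates), with the consensus in capitals.
*in*, chr3L:20367152-20367181 (+): gctcaattagaAACTGGTTttgagtgctga
*CG6330*, chr3R:26952972-26953001 (+): gcaggaccaaaAACCGGTTtcagcatcctt
*Hydr2*, chr2L:3165508-3165537 (+): ctcacctgacaAACCGGTTgaaaggtgaga
*Mipp1*, chr3L:16570737-16570766 (+): cgttggcctaaAACCGGTTctcttgccatc
*gish*, chr3R:16281528-16281557 (+): ccggcaacataAACTGGTTtttcgagttat
*CG32461*, chr3L:22952940-22952969 (+): acgcagcccaaAACTGGTTtttcaacgcaa
*JIL-1*, chr3L:11084608-11084637 (+): aataacagaaaAACCGGTTgcactagccag
*heph*, chr3R:31945084-31945113 (-): atgcagtctcaAACTGGTTtttattgcaac
*vvl*, chr3L:6790023-6790052 (+): gccagcggacaAACTGGTTtcgctcgccgg
*tey*, chr3L:19663666-19663695 (-): caactaacggcAACTGGTTtccatttggct
*CG5196*, chr3R:12408247-12408276 (+): aatagtgctccAACTGGTTcttgggtttcc
A region is named here by the gene with the nearest annotated start site, which need not be the gene it regulates.

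The lists were made at nearly the same depth. A list gives for each summit a fold enrichment and a p-value but no read count. The number of fragments piled up over a summit (its pileup) and the local background were therefore solved from these values, and every solved pileup lay within 0.05 of a whole number. The median summit had a pileup of 45 in grhB37/B37 and 46 in grhB37/+, over a median background of 15.1 and 14.8. The lowest background, which stands for the whole genome, was 0.837 in both. The lists covered 16.8 and 16.1 Mb, with median widths of 156 and 175 bp. With 1 list per genotype there is no spread between embryos and no test. The intervals given below are exact 95% intervals for counting error only, and fragments amplified by PCR are not fully independent.

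Most of the stronger accessible regions had a similar height in both genotypes. In all, 60874 regions matched between the lists, and 16012 of them ranked within the strongest 15000 of at least 1 list by q-value. These 16012 were compared, and the other 44862 matched regions were weaker in both. Each log2 ratio of pileups, grhB37/B37 over grhB37/+, was centred on the median of all matched regions. Of the compared regions, 97.3% differed by less than 1.5-fold, and the ratio had an SD of 0.25. At least 2-fold lower pileup in grhB37/B37 was found at 54 regions (0.337% of those compared), and at least 2-fold higher pileup at 13 (0.0812%). At 1.5-fold there were 238 lower (1.49%) and 192 higher (1.2%). With no rank limit, 302 of the 60874 matched regions were at least 2-fold lower (0.496%) and 339 were at least 2-fold higher (0.557%). Of the 54 lower regions, 49 ranked within 15000 in the control list alone, and all 13 higher regions did so in the mutant list alone. A region that entered in this way had to differ in that direction. When the 15000 regions with the highest summed pileup were taken in place of the rank limit, an alternative added after the data were seen, 9 were at least 2-fold lower and 1 was at least 2-fold higher.

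**Figure D1:**
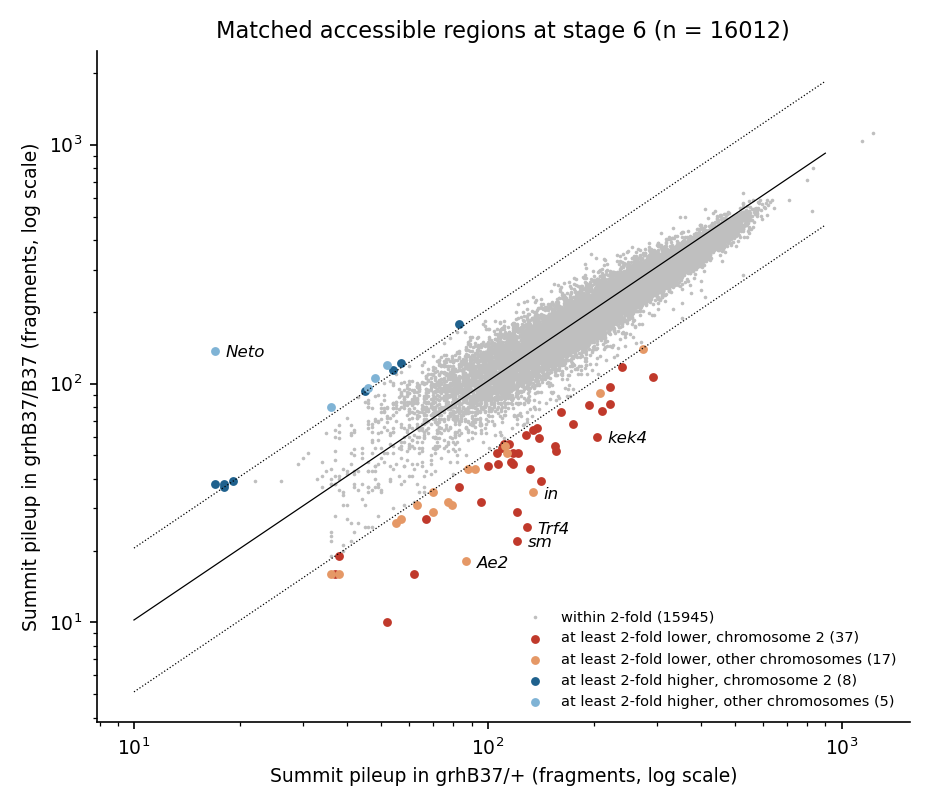
Summit pileup of the 16012 compared regions in grhB37/+ (x axis) and grhB37/B37 (y axis), both in fragments on log scales, 1 point per region. The solid line marks the median ratio of all matched regions and the dotted lines mark 2-fold. The 54 lower regions, 37 of them on chromosome 2, lie mostly at intermediate pileups, and *Neto* stands apart among the 13 higher ones.

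Regions with the Grh consensus were lower in grhB37/B37 more often than other regions. Of the compared regions, 180 (1.12%) held the consensus, and 15 of these were at least 1.5-fold lower in grhB37/B37 (8.33%, interval 4.74% to 13.4%), beside 1.49% of all compared regions. This share, unlike the median log2 ratio, was added after the data were seen. The exception in the other direction was 1 region, nearest to *Ubc10*, at 174 in grhB37/B37 and 98 in grhB37/+. The median log2 ratio was -0.15 at the 180 regions and -0.07 at the 15832 regions without the consensus, so the typical region with the consensus differed by far less than 1.5-fold.

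The share was not carried by chromosome 2. On chromosome 3, 10 of 74 regions with the consensus were at least 1.5-fold lower (13.5%, interval 6.67% to 23.5%), beside 0.549% of the 6924 regions without it, and 0 were at least 1.5-fold higher. On chromosome 2 there were 4 of 71 (5.63%, beside 2.19% of the regions without it). On X there were 0 of 29, beside 1.16% of the 2674 regions without it. The median log2 ratios on X were 0.06 with the consensus and 0.19 without it. The 10 regions on chromosome 3 were 10 of the 48 on that chromosome that were at least 1.5-fold lower. Both forms of the consensus contributed, with 7 of 49 regions with AACCGGTT and 8 of 131 with AACTGGTT at least 1.5-fold lower.

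Other strings did not show this share. The same strings read backwards (TTGGCCAA and TTGGTCAA, with TTGACCAA on the other strand), which hold the same bases in another order, lay in 0.899% of the compared regions. Of these 144 regions, 1 was at least 1.5-fold lower and 1 was higher, with a median of -0.07. The motif of Zelda (Zld; CAGGTAG, or CTACCTG on the other strand), a pioneer factor of the early embryo that was present in both genotypes, lay in 3.22% of the compared regions. Of these 515 regions, 2 were at least 1.5-fold lower and 6 were higher. The strings read backwards were likewise added after the data were seen.

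The share was small among the strongest regions. Among the strongest 5000 control regions, 1 of 61 with the consensus was at least 1.5-fold lower (1.64%, beside 0.527% without it), and from rank 5001 to 15000 there were 14 of 115 (12.2%, beside 2% without it). Among matched regions weaker than rank 15000 in both lists, which were outside the comparison, there were 36 of 344 (10.5%, beside 3.5% without it). Of the 15 lower regions, 12 ranked within 15000 in the control list alone. Among the 15000 regions with the highest summed pileup, 11 of 178 with the consensus were at least 1.5-fold lower (6.18%, beside 0.573%), and with no limit on rank 51 of 524 were (9.73%, beside 2.95%). In that unlimited set 16 of the 524 were at least 1.5-fold higher (3.05%, beside 5.04% without it). Of these, 9 were among the 79 regions with the consensus on X (11.4%, beside 15.0% without it).

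**Figure D2:**
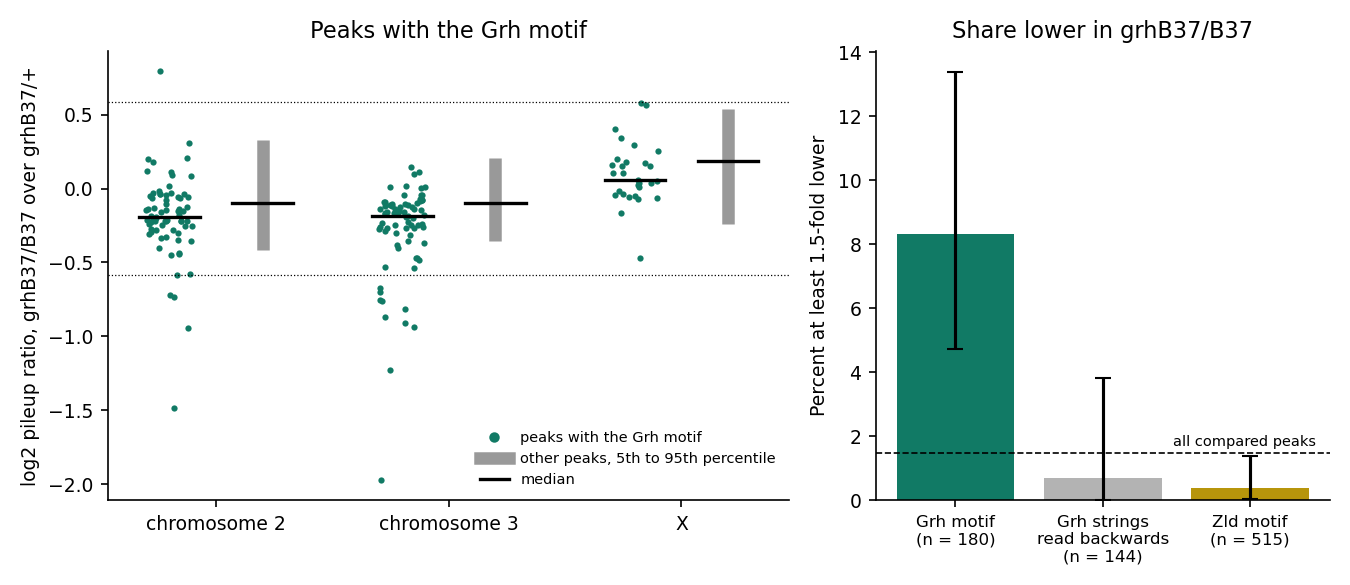
Left, log2 pileup ratio (grhB37/B37 over grhB37/+) of compared regions with the Grh consensus (green points, 71 on chromosome 2, 74 on chromosome 3 and 29 on X), beside the 5th to 95th percentile of the regions without it (grey bars). Black lines are medians and dotted lines mark 1.5-fold. Right, percent of regions at least 1.5-fold lower, by motif, with exact 95% intervals and the share of all compared regions as a dashed line at 1.49%.

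The largest of these differences was at the promoter of *in* (inturned), which encodes an effector of planar cell polarity. This region had a pileup of 35 in grhB37/B37 and 134 in grhB37/+, a log2 ratio of -1.97 (interval -2.55 to -1.42), and its site lay 18 bp from the summit. Its rank was 10455 in the control list and 52319 in the mutant list.

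The next regions outside 2R were 243 bp from a start site of *CG6330* and in introns of *Hydr2*, which encodes a hydrolase, and *Mipp1*, an inositol polyphosphate phosphatase. The *CG6330* region had a pileup of 91 in grhB37/B37 and 208 in grhB37/+ (log2 -1.23, interval -1.60 to -0.86). The *Hydr2* region had 67 and 126 (log2 -0.95, interval -1.40 to -0.51). The *Mipp1* region was the strongest of the group, at rank 1484 in the control list, with 189 and 354 (log2 -0.94, interval -1.20 to -0.68). Another 6 on chromosome 3 lay at log2 ratios from -0.91 to -0.67. They were nearest to *Ude* (a nuclease that degrades DNA with uracil), *CG6959*, *gish* (casein kinase 1 gamma), *CG32461*, *JIL-1* (a histone H3 kinase) and *heph* (a polypyrimidine tract-binding protein). On 2R they were nearest to *Ugt317A1*, at 107 and 293, and to *CG4324* and *LRP1*. The remaining one was a weak region on Y nearest to *PRY*, at 26 and 41, with an interval of the log2 ratio that reached 0.05. Of the 15, 7 had their summit within 1 kb of a start site, beside 69.4% of all 180.

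The same regions were looked up in embryos that share no sample with these lists. These were 3 stage 6 embryos that lacked maternal and zygotic Grh (grhM-Z-, labelled grhB37/grhB37) and 2 sibling embryos with maternal Grh (grhMwtZwt, labelled grhB37/+), told apart by the names of their regions, though not by the replicate number of the labels. Pileups were divided by the embryo's median over compared chromosome 3 regions, which was 43, 45 and 46 in grhM-Z- and 41 and 31 in grhMwtZwt. Of the 15 regions, 8 were listed in all 5 embryos, and at 7 of these 8 every grhM-Z- embryo lay below every grhMwtZwt embryo. Over all compared regions listed in the 5 embryos this was so for 7.25%. The median log2 difference was -0.58 at these 8, beside 0.04 over all compared regions. At *in* the relative pileups were 0.256, 0.20 and 0.217 in grhM-Z- and 0.805 and 0.29 in grhMwtZwt, so the groups did not overlap but the 2 sibling embryos differed from each other by more than the groups did at their closest. At *CG6330* they were 0.349, 0.356 and 0.283 against 1.24 and 0.484, and at *Hydr2* 0.326, 0.511 and 0.391 against 0.732 and 0.806. At *gish*, the exception, 1.26, 0.844 and 1.04 overlapped 1.46 and 1.23.

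Over all 180 regions with the consensus, 158 were listed in all 5 embryos. Their median log2 difference was -0.03, 20 had every grhM-Z- embryo below every grhMwtZwt embryo (12.7%), and 13 had the reverse order. Of the 223 regions without the consensus that were at least 1.5-fold lower in grhB37/B37, 108 were listed in all 5 embryos, and 50 of these had every grhM-Z- embryo below every grhMwtZwt embryo (46.3%). On chromosome 3 there were 6 of 22 such regions (27.3%). At stage 5 in the same experiment, 5 of the 15 regions were listed in all 6 embryos, and none of the 5 separated the groups.

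**Figure D3:**
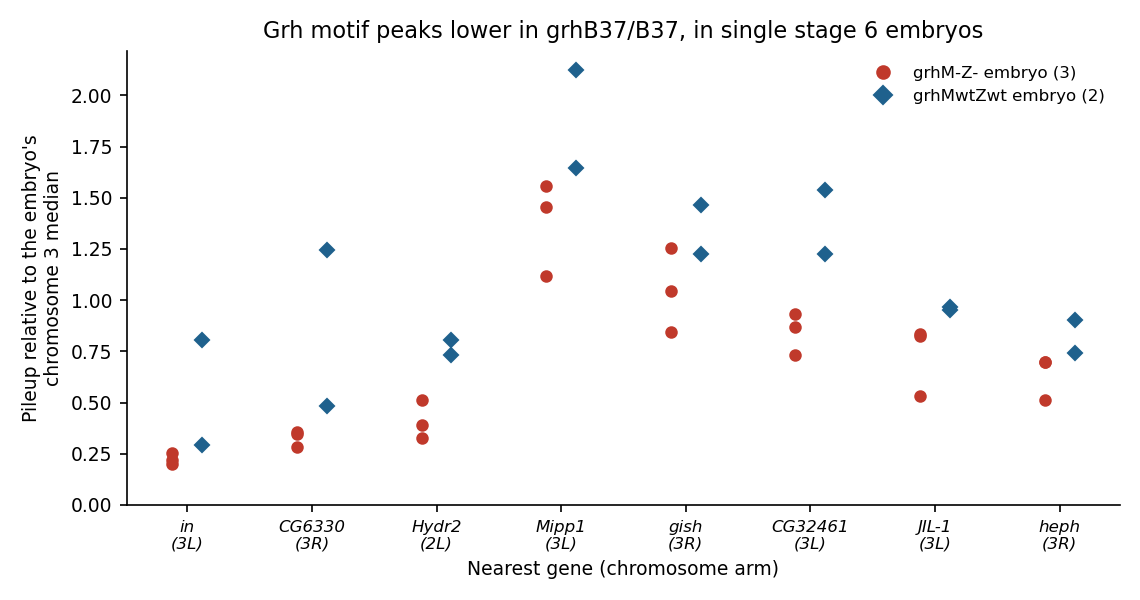
Pileup relative to the embryo's median over compared chromosome 3 regions (y axis, linear from 0) at the 8 regions with the Grh consensus that were at least 1.5-fold lower in grhB37/B37 and listed in all 5 embryos. Each point is 1 stage 6 embryo, 3 grhM-Z- (circles) and 2 grhMwtZwt (diamonds), and the groups overlap at *gish* alone.

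In embryos that lacked maternal Grh alone (grhM-, against grhMwt, 1 pooled list each), 13 of the 15 regions were matched at stage 6. Their median log2 ratio was -0.39, and 2 of them were at least 1.5-fold lower. At 11-12 h, in grhB37/B37 against grhB37/+, 5 of the 15 were matched, with a median of -0.34 and 0 past 1.5-fold. The same 2 comparisons gave medians of -0.06 and -0.34 for all matched regions among the 180, 172 and 56 of them. Of these, 2 and 9 were at least 1.5-fold lower, and 3 and 0 were at least 1.5-fold higher. Taken on their own regions, the maternal lists also had more of the regions with the consensus lower, 23 of 210 (11%, beside 3.78% of all their compared regions), and 12 of 87 on chromosome 3 (13.8%, beside 4.09% without it). At least 1.5-fold higher were 5 of the 210, beside 3.63% of all compared, and 5 of the 87, beside 3.22% of all compared on chromosome 3. Each stage 6 comparison, on its own regions, thus had a larger share lower at regions with the consensus. With 2 of the 172 lower, the share in the maternal lists lay mainly at regions other than those of the zygotic comparison. At 11-12 h there were 5 of 91 (5.49%, beside 4.81% of all compared). The median log2 ratio there was -0.17 with the consensus and 0.002 without it, and in the maternal lists it was -0.10 and -0.003. No value between embryos stands behind these ratios either.

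The strongest regions with the consensus stayed within 1.5-fold. The 10 strongest in the control list had log2 ratios from -0.35 to -0.05. At the promoter of *vvl*, which encodes a POU-domain transcription factor, the pileup was 574 in grhB37/B37 and 628 in grhB37/+ (log2 -0.16, interval -0.33 to 0.00). At *tey*, a zinc-finger gene, it was 447 and 473, at *CG5196* 353 and 386, and at *Optix*, a homeobox gene on 2R, 467 and 504. The lowest ratio of the 10 was at *lncRNA:CR46336* on 2R, with 374 and 464 (interval -0.55 to -0.15).

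The *grh* gene itself, on 2R from 17801132 to 17842820, remained accessible in both genotypes. Over the gene and 1 kb on each side, 22 regions matched, with a median log2 ratio of -0.15 and a range from -0.34 to 0.30, and 0 were past 2-fold. Its strongest region, 921 bp from a start site, had a pileup of 460 in grhB37/B37 and 457 in grhB37/+. The allele does not remove these sequences from the lists, so they do not check the genotype.

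Genes that Grh is known to bind or to drive, and the patterning genes active at gastrulation, had promoter regions of similar height in both genotypes. For each listed gene the strongest control region within 1 kb of a start site was taken. Of 66 genes of early Grh targets, epidermal barrier and repair, junctions, gap, pair-rule, segment polarity, dorsal-ventral and genome activation lists, 0 were past 1.5-fold in either direction, beside 1.49% of all compared regions lower and 1.2% higher, shares at which a list of this length would hold few or none. Their median log2 ratio was -0.12 and the range was -0.44 to 0.32. On the autosomes it was -0.13, beside -0.10 for all compared autosomal regions, and for the 8 genes on X it was 0.22.

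A few members show what lay behind these counts. The Grh-bound patterning genes *dpp* (a BMP ligand), *tll* (a nuclear receptor of the termini) and *en* (a homeodomain protein of posterior compartments) had pileups of 422, 447 and 467 in grhB37/B37 and 450, 467 and 477 in grhB37/+. *PCNA*, the replication clamp, was the lowest of the early Grh targets, at 259 and 338 (log2 -0.42, interval -0.66 to -0.18). Of the barrier genes, *kkv*, the chitin synthase, had 282 and 286, and *knk*, which organizes chitin, had 84 and 111 (log2 -0.44, interval -0.86 to -0.01). The junction gene *Fas3* had 495 and 533 and *cora* had 316 and 319. *Ddc*, the dopa decarboxylase that Grh drives in late epidermis, had a weak region at 29 and 28, at ranks 78136 and 69653. Of the wound-response gene *ple*, which encodes tyrosine hydroxylase, the control list had no region near a start site and the mutant list had one with a pileup of 21 at rank 80156.

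Of the 66 genes, 3 had the consensus at the region used, *Ddc*, *Doc1* and *opa*. *Doc1*, a T-box gene of dorsal ectoderm and amnioserosa, had a pileup of 409 in grhB37/B37 and 529 in grhB37/+ (log2 -0.41, interval -0.60 to -0.22). *opa*, a pair-rule gene that encodes a zinc-finger protein, had 399 and 481 (log2 -0.30, interval -0.50 to -0.11). The neighbouring *Doc2* and *Doc3*, without the consensus at the region used, had log2 ratios of -0.14 and -0.16. All of these lie within 1.5-fold.

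Marker genes of the gastrula had accessible promoter regions in both lists. Those of mesoderm (*sna*, *twi*), neuroectoderm (*sog*, *vnd*), dorsal ectoderm (*tup*, *pnr*) and terminal (*hkb*, *fkh*) genes ranked high. The dorsal ectoderm gene *zen* ranked 10795 in grhB37/+ and 9997 in grhB37/B37. The later neuron gene *elav* ranked 7407 and 6596, so rank did not set the gastrula genes apart from all later ones. All 23 genes of the gastrula lists, with the ventral furrow list, were matched. Of these, 0 were past 1.5-fold, which at the shares over all compared regions says little of so few genes. Of 9 genes used later in cuticle, muscle and neurons, *Syt1* was 2-fold lower, at 32 and 68, and *Ccp84Ad* and *wupA* were at least 1.5-fold higher, at 59 and 36 and at 29 and 17. All 3 regions ranked below 15000 in both lists.

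Within the rank limit, regions that differed by 2-fold lay mainly on chromosome 2. Of the 54 lower regions, 37 were on chromosome 2 (68.5%, interval 54.4% to 80.5%), which holds 37.5% of the compared regions. The share that was at least 2-fold lower was 0.811% on 2L and 0.426% on 2R, against 0.0902% on 3L and 0.0817% on 3R. Of the 13 higher regions, 8 were on chromosome 2, 5 on X and 0 on chromosome 3. The spread of the ratio was also wider there, with an SD of 0.26 on 2L and 0.25 on 2R against 0.19 on 3L and 0.17 on 3R. The medians did not differ in this way, at -0.09, -0.10, -0.10 and -0.10. In the maternal comparison at stage 6, grhM- against grhMwt, the SD was 0.30 and 0.34 on 2L and 2R and 0.33 and 0.34 on 3L and 3R. The maternal lists were shallower, with median pileups of 79 and 92 at compared regions, against 201 and 203 here. Among the 15000 regions with the highest summed pileup, 7 of the 9 lower regions and the 1 higher region were on chromosome 2. When regions were ranked by fold enrichment instead of q-value, which brings in regions over low background, the share on chromosome 2 was 72 of 176 lower regions (40.9%). With no rank limit, 141 of 302 lower regions and 75 of 339 higher regions were on chromosome 2. X held 220 of those higher regions (2.13% of its matched regions). The share lower in that set was 0.631% on chromosome 2 and 0.311% on chromosome 3. At 11-12 h, in grhB37/B37 against grhB37/+, 1 of 2662 compared regions on chromosome 2 was at least 2-fold lower (0.0376%). On chromosome 3 there were 5 of 3446 (0.145%). At least 2-fold higher were 52 and 109 of these regions, and the SD was 0.40 and 0.43. Median pileups over all compared regions at 11-12 h were 40 and 56.

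**Figure D4:**
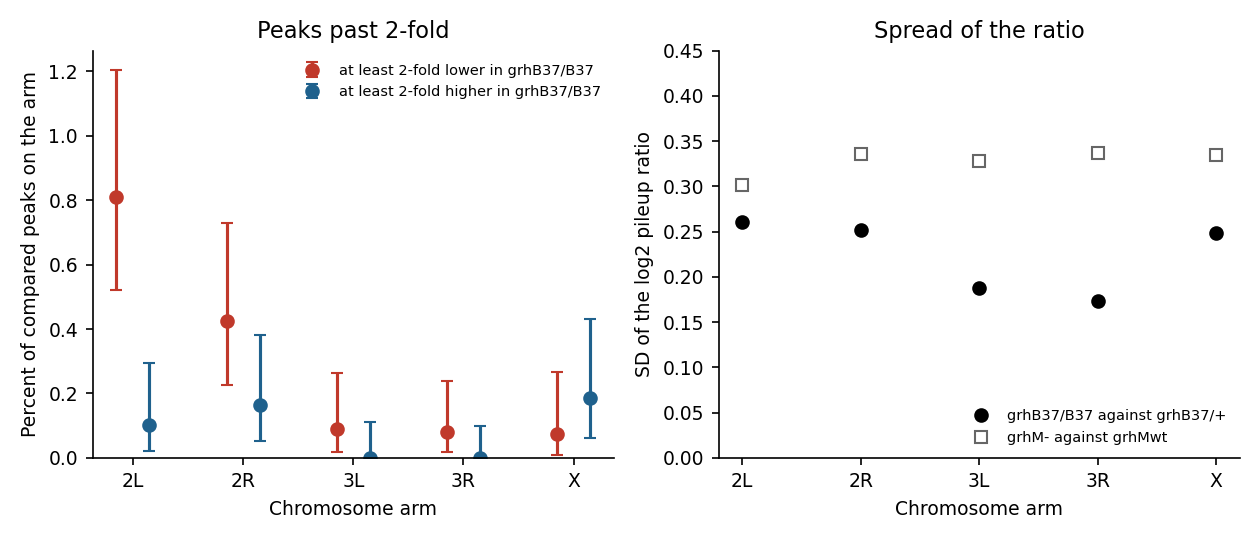
Left, percent of the compared regions of each chromosome arm that were at least 2-fold lower (red) or higher (blue) in grhB37/B37, with exact 95% intervals for counting error. Right, SD of the log2 pileup ratio by arm in this comparison (black) and in grhM- against grhMwt at stage 6 (open squares). Arms 2L and 2R lie above 3L and 3R on the left and in the black points on the right, where X also lies at 0.25. The lists behind the open squares were shallower, with median pileups of 79 and 92 against 201 and 203.

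The lower regions of chromosome 2 did not lie in long runs. Their median pileup was 51 in grhB37/B37 and 122 in grhB37/+, and their median control rank was 11155, the best being 2724. Of the 37, 10 were promoters within 1 kb of a start site (27%), beside 60.8% of all compared regions on chromosome 2. Of the 73 nearest compared neighbours on either side, at a median distance of 6.38 kb, 61 differed by less than 1.5-fold, their median log2 ratio was -0.07, and 4 were themselves 2-fold lower. A pair of the lower regions nearest to *CR41519* on 2L lay side by side. Near *grh* itself, 0 of the 74 compared regions within 0.25 Mb were 2-fold lower. Within 3 Mb of the centromere end of each arm, 9 of 416 on chromosome 2 were (2.16%), against 1 of 176 on chromosome 3 (0.568%). Over the rest of chromosome 2 there were 28 of 5594 (0.501%), against 5 of 6822 (0.0733%) over the rest of chromosome 3. The Grh consensus was in 1 of the 37.

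The lowest ratio of all was in an intron of *sm* on 2R, which encodes an RNA-binding protein. Its pileup was 22 in grhB37/B37 and 121 in grhB37/+ (log2 -2.49, interval -3.22 to -1.83). The region was in the list of no grhM-Z- embryo, of the 3 at stage 6 and 3 at stage 5. In the grhMwtZwt embryos its pileup was 19 and 16 at stage 6 and 17, 17 and 12 at stage 5. *Trf4* on 2L had 25 and 129 at its promoter (log2 -2.40, interval -3.08 to -1.78). Its relative height on the log2 scale was -2.26 and -2.94 in the 2 grhM-Z- embryos at stage 6 that listed it and -1.11 and -1.63 in grhMwtZwt. *kek4* on 2L, which encodes a transmembrane protein with leucine-rich repeats, had 60 and 204 (log2 -1.80, interval -2.24 to -1.38). Outside chromosome 2, the promoter of the anion exchanger gene *Ae2* on 3L had 18 and 87, and it was listed in 2 of the 3 grhM-Z- embryos and in no grhMwtZwt embryo at stage 6.

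As a group, the 37 lower regions of chromosome 2 were also lower in grhM-Z- embryos, which carry the same allele homozygous. Of the 37, 16 were listed in all 5 stage 6 embryos, with a median log2 difference of -0.94 (SD 0.37 over regions), and 12 had every grhM-Z- embryo below every grhMwtZwt embryo (75.0%, beside 7.25% over all compared regions). The regions were listed in 56.8% of grhM-Z- and 87.8% of grhMwtZwt cases. At stage 5, 8 were listed in all 6 embryos, with a median of -0.53. Of the 17 lower regions elsewhere, 8 were on Y. Of the 17, 4 were listed in all 5 stage 6 embryos, and at these 4 every grhM-Z- embryo lay below.

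Among the 13 higher regions, *Neto* on X, which encodes an auxiliary subunit of glutamate receptors, had the largest ratio. Its pileup was 137 in grhB37/B37 and 17 in grhB37/+ (log2 2.98, interval 2.24 to 3.8). In single embryos it did not follow genotype, with 33, 6 and 7 in grhM-Z- and 34 and 18 in grhMwtZwt. The other regions on X, nearest to *cac*, *CG33223*, *Ilp7* and *RunxA*, had ratios from 1.03 to 1.17. On chromosome 2, the promoter of *IKKepsilon* on 2L, a kinase gene, had 122 and 57 (log2 1.06, interval 0.60 to 1.54). It was listed in all 3 grhM-Z- embryos at stage 6 (12, 21 and 26) and in all 3 at stage 5 (20, 29 and 27), and in no grhMwtZwt embryo of either stage. In the maternal comparison both lists held it, at 87 in grhM- and 80 in grhMwt.

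The sex chromosomes differed as a whole. The median log2 ratio was 0.18 on X, with 89 of the 192 regions at least 1.5-fold higher, and -0.60 at the 42 compared regions on Y. The median background on X over that on 2L, 3L and 3R was 0.869 in grhB37/B37 and 0.702 in grhB37/+, and the lists held 467 and 557 regions on Y. The labels do not give the sex of the embryos, and its part in these ratios was not tested. In fold enrichment, which divides by the local background, the median on X was -0.05. When autosomes, X and Y were each centred on their own median, an alternative added after the data were seen, 10 of 11 higher regions were on chromosome 2.

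Regions present in one list alone were weak. Among the strongest 15000 of each list, 1 had no overlap with any region of the other list in grhB37/B37 and 4 in grhB37/+, all on chromosome 2. The 1 in grhB37/B37 was nearest to *CG7882*, at rank 13442. The 4 in grhB37/+ were in an intron of *ab*, which encodes a BTB zinc-finger protein, with a pileup of 190 at rank 8113, near the chitinase gene *Cht10* at rank 13451, near *CG30083* at rank 13673 and in an intron of *Stlk* at rank 14555. The *Stlk* region holds the Grh consensus. Below rank 15000, 17737 of 66187 regions of grhB37/B37 (26.8%, interval 26.5% to 27.1%) and 8372 of 55259 regions of grhB37/+ (15.2%, interval 14.9% to 15.5%) had no overlap in the other list. The longer list thus had more regions of its own. A further 2575 and 1009 regions overlapped the other list without being the mutual strongest.

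The share without overlap was higher among weaker regions in both lists, from 0.84% and 0.593% at ranks 15001 to 30000 to 47.7% and 32.4% beyond rank 50000. Their median pileup was 25 in grhB37/B37 and 21 in grhB37/+, against 42 and 39 for the shared regions below rank 15000. By chromosome they followed the list. Chromosome 2 held 36.9% of them in grhB37/B37 and 38.3% in grhB37/+, beside 36.7% of all regions below rank 15000 in each list. The exception was at ranks 15001 to 30000, where 57 of 89 control-only regions (64.0%) and 58 of 126 mutant-only regions (46.0%) were on chromosome 2. X and Y went opposite ways, with 29.2% and 25.1% of their weak regions without overlap in grhB37/B37 and 13.2% and 41.4% in grhB37/+.

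By genomic class the list-only regions held more exons and fewer promoters than the shared ones. Those within 1 kb of a start site made up 23.8% in grhB37/B37 and 21.0% in grhB37/+, against 26.1% and 25.2% of shared regions below rank 15000. Exons held 18.3% and 16.7%, against 13.8% and 14% of the shared regions. Introns held 34.8% and 37%, against 36.1% and 36.4%, and the rest were intergenic. Genes beside the centromeres had the most list-only regions in both lists, and they also had many regions in all. Of the regions below rank 15000 nearest to *Myo81F* on 3R, 50 of 179 in grhB37/B37 (27.9%) and 52 of 174 in grhB37/+ (29.9%) were list-only, beside 26.8% and 15.2% over the whole lists.

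The Grh consensus divided the list-only regions by genotype. It lay in 89 of the 8372 regions found in grhB37/+ alone (1.06%, interval 0.855% to 1.31%) and in 74 of the 17737 found in grhB37/B37 alone (0.417%, interval 0.328% to 0.523%). The shared regions below rank 15000 lay between them, at 0.644% and 0.611%. On chromosome 3 the shares were 1.03% and 0.461%, and on chromosome 2 they were 1.22% and 0.443%. The strings read backwards were at 1.36% and 1.10% of the list-only regions, and the Zld motif at 0.932% and 1.20%. Of the control-only regions with the consensus, those shown here were the strongest with a printed site, at the promoter of *CG9121* on 2L (pileup 119, rank 22860) and in an intron of *Paip2* on 3R, which encodes a poly(A)-binding protein-interacting protein (pileup 85, rank 28346). Their sites are shown because both regions were called in grhB37/+ alone.
*CG9121*, chr2L:5050207-5050236 (+): ggccaaccgatAACCGGTTttccggccttc
*Paip2*, chr3R:12983297-12983326 (+): taatgacggaaAACCGGTTtcgtagaacga
Their −log10 q was 20.8 and 13.9, far above the median of 2.87 over all control-only regions. With 1 list per genotype, the counts describe the lists and not a gain or loss at single sites.

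**Figure D5:**
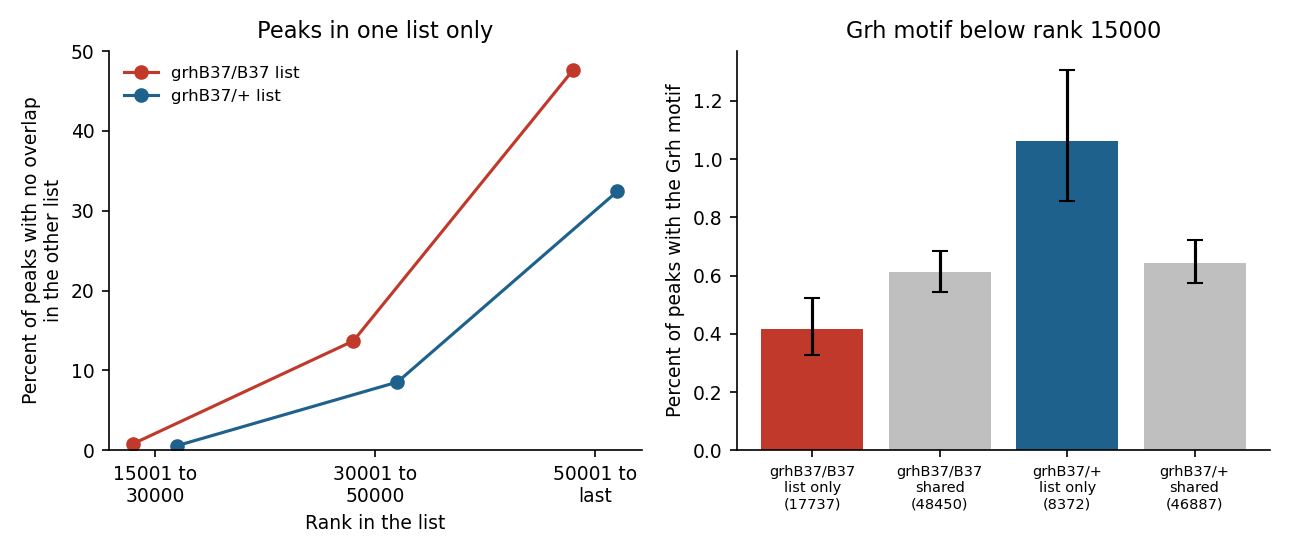
Left, percent of regions with no overlap in the other list, by rank class, in the grhB37/B37 (red) and grhB37/+ (blue) lists. Right, percent of regions below rank 15000 with the Grh consensus within 50 bp of the summit, for list-only regions (coloured) and shared regions (grey), with exact 95% intervals and the number of regions under each bar. The control-only bar, at 1.06%, is the highest and the mutant-only bar, at 0.417%, the lowest.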

How the data were processed

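Single stage 6 embryos were assayed by ATAC-seq with 150 bp paired-end reads. The authors used Trimmomatic 0.36 for trimming and Bowtie 2 for alignment to dm6. They kept uniquely mapped pairs from the chromosomes with fragments of at most 101 bp, and ran MACS2 (q-value of 0.05, with summits) once per genotype over its replicates. The deposited lists give the fold enrichment, a ratio of summit to background, and the −log10 of the p-value and q-value of each summit. The authors' own counts for each embryo and their DESeq2 test were not analysed here.

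Pileup and background were solved by reading the ratio as (pileup + 1) / (background + 1) and the p-value as a Poisson tail, a step tested on simulated data. Rows with the same chromosome, start and end were joined, keeping the highest −log10 q, and ranked by it. Regions matched when each was the other's strongest overlap of at least 1 bp. Promoters lie within 1 kb of a start site of Ensembl release 115. Named regions are the 12 lowest and 12 highest ratios, the 8 strongest of each list alone, the 10 strongest control regions with the Grh consensus, regions over *grh* and the listed genes. The lower regions with the consensus, *CG9121*, *Paip2* and *Ubc10* were named after their values were seen. One of the lower regions is counted but not reported by name here. The members and gene lists were chosen with earlier results of these data known. Alternatives changed the scaling, height measure, matching, fold, rank limit, overlap, motif window and start-site distance. Shares carry exact Clopper-Pearson intervals, and log2 ratios exact conditional binomial ones, both for counting error only. Analyses used Python 3.11.15 with scipy 1.17.1.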

Additional observations from a re-analysis of the deposited data

How the results depend on the processing

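No paired analysis was possible because each stage 6 list holds the replicates of its genotype together, and the embryo names in the lists of the other experiment carry no replicate number of the labels. Of 61 alternative values, 43 stayed near the reported value, 18 moved and 0 reversed. Near meant within the counting interval for a share, within 1.5-fold for a count and within the SD over regions for a median. For the median at regions with the consensus (-0.15) that SD was 0.32, so the rule was a loose one. The share of compared regions at least 2-fold lower (0.337%) or higher (0.0812%) moved to 0.212% and 0.025% in fold enrichment, 1.49% and 1.2% at 1.5-fold, 0.496% and 0.557% with no rank limit, 0.214% and 0.0371% at rank 10000, and 0.06% and 0.00667% among the highest summed pileups. The share of lower regions on chromosome 2 moved to 40.9% when ranked by fold enrichment. The share of higher regions there moved to 90.9% with chromosome medians and 100% (1 of 1) among the highest summed pileups. With a −log10 q of at least 3, list-only regions below rank 15000 numbered 9431 in grhB37/B37 and 3926 in grhB37/+. Within 500 bp of a start site their promoter shares were 13.9% and 12.4%. Strings read backwards gave 0.694% lower regions in place of 8.33%. Without each embryo in turn, the median of the lower chromosome 2 regions in grhM-Z- embryos ranged from -1.15 to -0.86. Apart from changes made by the construction of an alternative (fewer or weaker regions, another threshold), the cause was not tested. A pileup near 20 has a wide counting interval, so a single region that weak cannot show a difference below 2-fold.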
